A study of Mus musculus with 2 samples.

Results

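Pecam1, Cd44, Ptprc and Cd34 encode 4 surface proteins by which endothelial and blood cells of the mouse embryo are sorted, and they were followed as 4 rows of the 24543 genes counted in single cells that had been sorted as CD31+CD44+. Pecam1 encodes CD31, an immunoglobulin-family adhesion molecule at the junctions of endothelial cells that platelets and many leukocytes also carry. Cd44 encodes the receptor for hyaluronan, a sugar polymer of the matrix, and is found on arterial endothelium and on most blood cells. Ptprc encodes CD45, a receptor tyrosine phosphatase of nucleated blood cells that acts on kinases of the Src family and is absent from endothelium. Cd34 encodes a sialomucin of endothelial cells and blood progenitors, related to podocalyxin and able to carry selectin ligands. During the endothelial-to-hematopoietic transition (EHT), arterial endothelial cells of the aorta round up, gain blood genes and leave the vessel wall, and the order in which these surface proteins are lost and gained is used to name the stages.

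The cells came from the caudal part of embryos at embryonic day 10 and were profiled with 10x Chromium V3 chemistry, which counts unique molecular identifiers (UMIs) near the 3′ end of each transcript. The cKO embryos were Vec-Cre;Nupr1 fl/fl, in which a Cdh5-driven Cre recombinase deletes the nuclear protein gene Nupr1 in endothelial cells and in their descendants, and the controls were littermates with Nupr1 fl/fl or Nupr1 fl/+, so both groups carried floxed alleles. Each of the 2 replicates was 1 pool of cKO and control cells that hashtag oligos told apart (hash.ID KO or WT), and a pool may hold cells of several embryos, which the labels do not separate. Replicate 1 held 344 cKO and 334 control cells and replicate 2 held 713 and 748, in all 2139 cells with a median of 54740 UMIs, and the replicates shared 0 barcodes.

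Nupr1 was lower in both cKO groups: it had 215 UMIs (14.4 CPM, UMIs scaled to a total of 1000000) and 979 UMIs (21.5 CPM) in control replicates 1 and 2, against 10 (0.573 CPM) and 69 (1.50 CPM) in cKO. The cKO cells of replicate 1 differed from the other groups in sex: 0.872% had Xist without a transcript of chromosome Y and 90.7% had such a transcript, whereas Xist without them was found in 92.8% of the control cells of the same pool. In replicate 2 the shares with Xist were 98.7% in control and 57.6% in cKO, and chromosome Y transcripts were found in 0% of both. Genotype and embryo sex can therefore not be told apart in replicate 1. In replicate 2 the groups also differed in the share with Xist, and genotype cannot be told apart from that difference either.

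The members are listed by symbol in both count tables and were placed with the GENCODE M21 annotation of GRCm38, all as protein-coding genes. Pecam1 (ENSMUSG00000020717.19) lies on chromosome 11 from 106654217 to 106750628 on the minus strand and overlaps 0 other annotated genes. Cd44 (ENSMUSG00000005087.17) lies on chromosome 2 from 102811141 to 102901665 on the minus strand and overlaps the small RNA gene Gm23731. Ptprc (ENSMUSG00000026395.16) lies on chromosome 1 from 138062861 to 138175708 on the minus strand, overlapping A130071D04Rik. Cd34 (ENSMUSG00000016494.9) lies on the plus strand of the same chromosome, from 194938819 to 194961279, and the antisense gene Gm16897 overlaps it. Gm16897 had 0 to 5 UMIs in each cell class, and the other overlapping genes have no row in the tables.

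Windows of 250 bases before to 50 after the transcription start were at hand for 3 of the 4 genes, and the start regions of Cd44, Ptprc and Cd34 are shown because the levels of Ptprc and Cd34 differed in opposite directions between arterial and macrophage cells while those of Cd44 overlapped. Capitals mark the letters AGGAAG, a form bound by ETS factors, which reads CTTCCT on the other strand, or AGATAA, a form bound by GATA factors, which there reads TTATCT. Other letters that these factors can bind were not marked. The sequences are from RefSeq on GRCm38.p6, 5′ to 3′ along the gene: chr2:102901616-102901915 (minus) for Cd44, chr1:138175256-138175555 (minus) for the first of the 2 Ptprc windows and chr1:194938571-194938870 (plus) for Cd34.
Cd44: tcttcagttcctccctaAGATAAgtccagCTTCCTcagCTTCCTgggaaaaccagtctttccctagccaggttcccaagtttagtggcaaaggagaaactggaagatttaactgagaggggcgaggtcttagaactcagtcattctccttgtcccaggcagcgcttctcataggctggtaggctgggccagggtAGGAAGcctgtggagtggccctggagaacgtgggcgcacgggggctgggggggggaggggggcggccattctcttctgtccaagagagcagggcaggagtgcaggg
Ptprc: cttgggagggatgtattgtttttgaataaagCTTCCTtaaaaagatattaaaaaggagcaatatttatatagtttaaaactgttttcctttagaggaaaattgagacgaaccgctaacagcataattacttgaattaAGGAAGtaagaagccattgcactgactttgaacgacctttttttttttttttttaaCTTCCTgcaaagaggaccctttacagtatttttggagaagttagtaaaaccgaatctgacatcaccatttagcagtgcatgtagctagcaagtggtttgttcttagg
Cd34: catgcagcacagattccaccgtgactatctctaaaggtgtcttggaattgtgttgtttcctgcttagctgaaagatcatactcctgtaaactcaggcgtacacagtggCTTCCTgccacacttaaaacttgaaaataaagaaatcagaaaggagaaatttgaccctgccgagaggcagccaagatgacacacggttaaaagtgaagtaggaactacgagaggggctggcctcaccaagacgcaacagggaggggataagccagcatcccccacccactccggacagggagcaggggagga
The Cd44 window held 3 ETS forms and 1 GATA form, the Ptprc window 3 ETS forms, and the Cd34 window 1. The other Ptprc window, not shown, held 1 ETS form and 1 GATA form. Among all 32851 windows, 35.4% held this ETS form and 11.2% the GATA form. The RUNX form TGTGGT, which reads ACCACA on the other strand, was in 16.8% of them and in 0 of the 3 windows shown. The 2 motifs marked do not overlap in these windows. A match of letters is no binding site, and a 3′ count does not read which start was used.

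Cells were placed in 7 classes by genes other than the 4 members, each cell taking the first rule it met. The rules were, in order, C1qa for macrophages (at least 2 UMIs per 10000), Gp9 for megakaryocytes (1 per 10000), Mpo with Fcgr3 for myeloid cells (1 and 0.5 per 10000), Gfi1 with Neurl3 for EHT cells (1 UMI each), Myb for progenitors (2 UMIs), Gja5 for arterial cells (2 per 10000), and Kitl with Esm1 for plexus endothelium (1 UMI each). This gave 581 macrophage, 225 megakaryocyte, 171 myeloid, 229 EHT, 152 progenitor, 428 arterial and 46 plexus cells, and 307 cells met no rule. Of the 110 cells that met the Kitl with Esm1 rule, 64 also met the Gja5 rule and were taken as arterial. The plexus cells are thus those of that rule that lay under the Gja5 threshold. Of the markers that no rule used, 8 of 8 arterial, 6 of 6 myeloid, 6 of 6 macrophage and 6 of 6 megakaryocyte genes were highest in their own class, but only 3 of 5 plexus, 4 of 6 EHT and 1 of 5 progenitor genes were. The EHT and Myb rules overlapped in 193 cells. The Myb rule also overlapped the myeloid rule in 132 cells, the macrophage rule in 33 and the megakaryocyte rule in 17. Progenitor cells here are thus Myb cells that met none of these earlier rules, and so lacked Gfi1 or Neurl3 and the myeloid pair at its thresholds. Median depth was 23647 UMIs in arterial cells, 49013.5 in plexus, 54328 in EHT, 56362 in macrophage, 79124.5 in progenitor, 80872 in megakaryocyte and 83455 in myeloid cells, so a share of cells with a UMI is not comparable between classes without thinning. UMIs were summed per class, genotype and replicate, and these sums, 4 per class from 2 pools, are the values compared. Megakaryocytes had 3 sums because cKO replicate 1 held 0 such cells.

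Pecam1 was highest in the arterial cells, lower in EHT cells and lower again in progenitor cells. This is an order of classes set by rules that overlap, and not a measured course in time. The arterial sums had 552 and 631 CPM in control replicates 1 and 2 and 501 and 604 CPM in cKO, a mean of 572 ± 57.7 (SD, n = 4 sums). Plexus sums had 301, 217, 358 and 428 CPM in the same order, a mean of 326 ± 89.5. The highest plexus sum lay below the lowest arterial sum. EHT sums had 104, 150, 127 and 104 CPM, a mean of 121 ± 22.1. Progenitor sums had 61.3, 16.6, 57.4 and 23.7 CPM (39.7 ± 22.9), all below the EHT sums, and in both genotypes replicate 1 was the higher. Megakaryocyte (36.2 ± 11.8, n = 3), myeloid (28.6 ± 7.10) and macrophage sums (17.4 ± 6.63) followed, and from the progenitors down each class overlapped its neighbour in the order. Counted per cell and not as CPM, plexus cells carried more Pecam1 than arterial cells (18.7 against 14.6 UMIs per cell as means of the sums), and plexus cells were also the deeper ones.

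Cd44 was the flattest of the members. Its sums averaged 80.6 ± 12.9 CPM in EHT, 77.1 ± 20.8 in myeloid, 68.0 ± 27.1 in progenitor and 67.2 ± 7.41 in arterial cells, and each of these classes overlapped the next. Macrophage sums had 64.1, 37.3, 51.5 and 41.2 CPM, and overlapped the arterial range of 62.3 to 78.0. Megakaryocytes (36.5, 19.2 and 20.7 CPM) lay below every macrophage sum. Plexus cells were lowest, with 8.52, 11.9, 12.9 and 24.4 CPM from 3, 4, 16 and 17 UMIs, so that Cd44 had the lowest mean of the 7 classes in cells sorted for the protein. Both endothelial classes were high in Pecam1 but did not overlap in Cd44. Per cell, the mean of the sums was 1.69 UMIs in arterial and 4.91 in EHT cells, a wider gap than in CPM, and EHT cells were the deeper class.

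Ptprc was highest in macrophages and lowest in arterial cells. Macrophage sums had 136, 96.9, 143 and 89.5 CPM (116 ± 27.0), with replicate 1 the higher in both genotypes. Myeloid sums had 60.8, 33.2, 40.6 and 37.8 CPM, progenitor sums 42.5, 15.2, 43.8 and 25.5, and EHT sums 26.5, 12.1, 21.8 and 20.1. Macrophages lay above all myeloid sums, whereas the myeloid, progenitor and EHT ranges overlapped in turn. The endothelial and megakaryocyte classes were near 0: arterial sums held 0, 2, 0 and 4 UMIs, plexus sums 1, 0, 0 and 4, and megakaryocyte sums 0, 8 and 7. Of the 4 UMIs in the cKO plexus sum of replicate 2, all came from 1 cell. In arterial cells the 6 Ptprc UMIs stood beside 75 UMIs of C1qb, a macrophage complement gene, and in macrophages 3362 Ptprc UMIs stood beside 90787 of C1qb. These are 0.08 and 0.0370 Ptprc UMIs per C1qb UMI. The same ratio was 0.385 in plexus cells (5 and 13 UMIs) and 2.92 in EHT cells (286 and 98 UMIs). Progenitor and myeloid cells held more C1qb, with 834 UMIs (71.6 CPM, detected in 38.2% of cells) and 674 UMIs (47.8 CPM, 35.7%), and its part in their Ptprc levels was not tested.

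Cd34 was highest in endothelium and stayed high through the EHT cells. Arterial sums had 768, 945, 753 and 929 CPM (849 ± 102), replicate 2 being the higher in both genotypes, and plexus sums had 633, 677, 779 and 601 CPM (673 ± 77.7), overlapping the arterial range. EHT sums kept within 432 to 460 CPM (443 ± 11.8), the narrowest relative spread of any class for this gene, and lay below every plexus sum. Progenitor sums had 336, 191, 456 and 194 CPM, a mean of 294 ± 127, with the 2 sums of replicate 1 above those of replicate 2. Myeloid sums had 166, 192, 239 and 214 CPM. Macrophages were at 22.4 to 28.0 CPM, and megakaryocytes at 139.5, 11.5 and 31.7 CPM, where the first value came from 6 control cells. Counted as UMIs per cell, Cd34 gave another order: 38.4 in plexus, 27.1 in EHT and 21.7 in arterial cells. The plot of CPM by class shows the sums of all 4 genes.

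**Figure D1:**
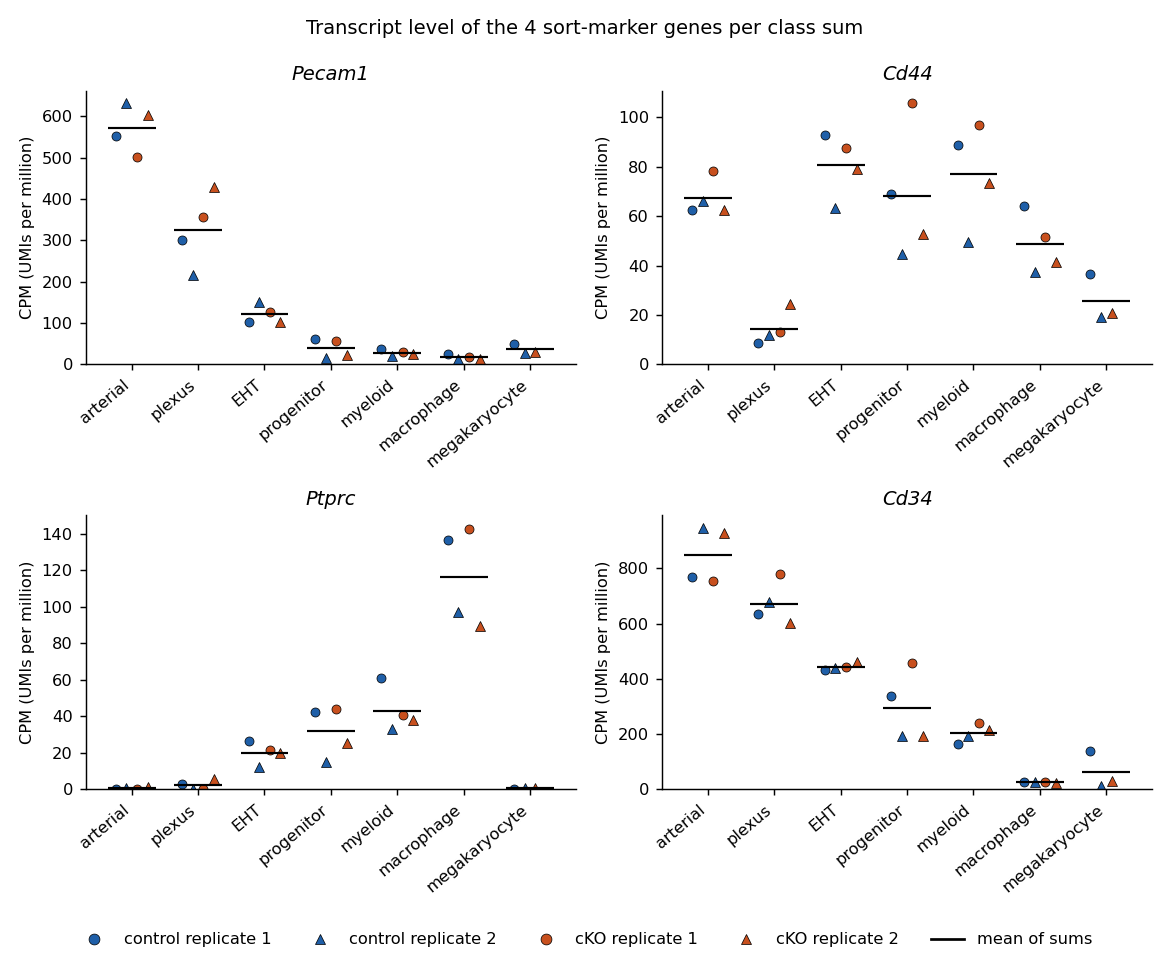
Level of Pecam1, Cd44, Ptprc and Cd34 in CPM (scaled to 1000000 UMIs of the sum, linear axis from 0) in each cell class. Each point is the sum of 1 genotype and replicate, lines are means of the 4 sums (3 in megakaryocytes), and the arterial sums are highest in Pecam1 (501 to 631 CPM) while the macrophage sums are highest in Ptprc (89.5 to 143 CPM).

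Shares of cells with at least 1 UMI were taken as deposited and at equal depth. As deposited, Pecam1 was detected in 99.1% of arterial cells (exact binomial 95% interval 97.6 to 99.7), 97.8% of plexus, 96.1% of EHT, 73.0% of progenitor, 75.4% of myeloid, 76.0% of megakaryocyte and 43.0% of macrophage cells (39.0 to 47.2). When each cell was thinned to 6000 UMIs, which left out 31 shallower cells, 16 of them arterial, the shares were 94.2%, 93.5%, 51.5%, 17.9%, 12.9%, 19.2% and 7.81%. The EHT cells, close to the arterial cells as deposited, were then between these and the blood classes. Intervals cover counting error only and do not speak of embryos.

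Cd44 was detected in 69.2% of arterial cells (64.5 to 73.5) at a median depth of 23647 UMIs and in 94.3% of EHT cells (90.5 to 96.9) at 54328. At 6000 UMIs the shares were 29.1% (24.8 to 33.8) and 41.0% (34.6 to 47.7). Progenitor, myeloid and macrophage cells had 27.2%, 25.1% and 20.8% at that depth, below the EHT share although as deposited 91.4%, 95.3% and 76.8% of them had a UMI. Plexus cells had the lowest share both ways, 45.7% (30.9 to 61.0) as deposited and 13.0% thinned.

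Ptprc was detected in 95.5% of macrophages, 81.3% of myeloid, 53.9% of progenitor and 41.9% of EHT cells, and in 45.1%, 21.1%, 12.6% and 10.5% after thinning. Endothelial cells, which should lack the gene, gave the background: 1.40% of arterial cells (0.516 to 3.03) and 4.35% of plexus cells (0.531 to 14.8). Megakaryocytes had 5.78% (3.11 to 9.68) at a depth of 80872 UMIs. After thinning the arterial, plexus and megakaryocyte shares were 0.485%, 0% (exact upper bound 7.71%) and 0.446%. The EHT share was above that of each of these classes at either depth, although after thinning its interval (6.83 to 15.2) reached below the upper bound in plexus cells. Among EHT cells the median was 0 UMIs and the maximum 20.

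Cd34 was detected in 98.8% of arterial, 100% of plexus, 99.6% of EHT, 96.5% of myeloid and 81.6% of progenitor cells, and in 97.1%, 93.5%, 90.4%, 60.2% and 62.3% after thinning. Macrophages (41.1%, thinned 13.0%) and megakaryocytes (24.9%, thinned 8.48%) were low. In progenitors 28 of 152 cells had no Cd34 UMI although the median cell had 17, and in megakaryocytes 169 of 225 had none while 1 cell had 53. The count of a cell thus spread widely within both classes. Macrophages were also poor in Cdh5, the endothelial cadherin: it was detected in 12.2% of them, with 9.78 Cd34 UMIs and 5.19 Pecam1 UMIs per Cdh5 UMI, against 0.761 and 0.514 in arterial cells. How far free RNA adds to the low shares was not tested. In the plot of detection by class, the gap between the deposited and thinned shares is widest in the blood classes.

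**Figure D2:**
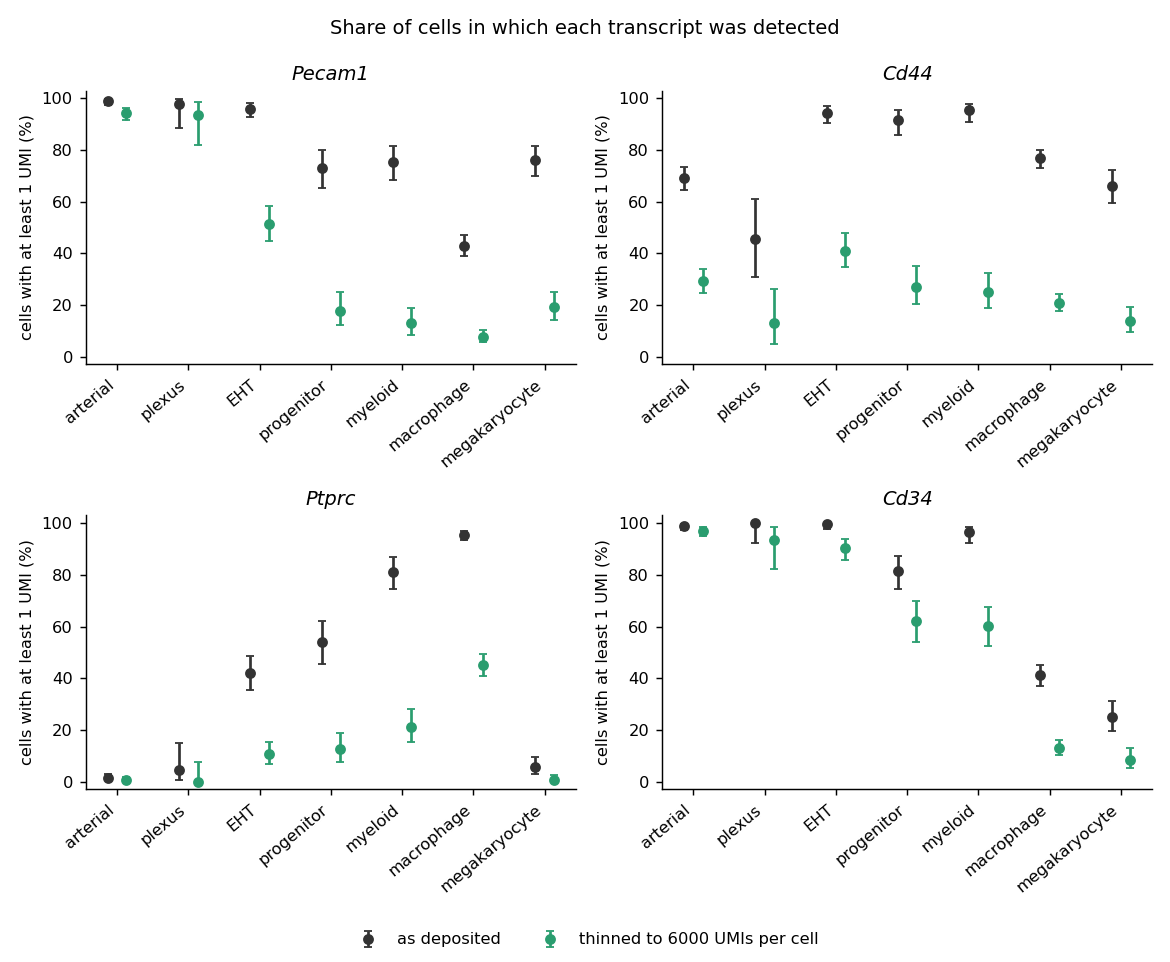
Share of cells (%) with at least 1 UMI of each gene by class, as deposited (grey) and after thinning to 6000 UMIs per cell (green), with exact binomial 95% intervals. The Pecam1 share of EHT cells is 96.1% as deposited and 51.5% thinned, and the Ptprc share of arterial cells is 1.40% and 0.485%.

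Since every cell had passed a gate on CD31 and CD44 protein, Pecam1 and Cd44 were read together to set transcript against gate. Of the 2139 cells, 54.6% (52.4 to 56.7) had UMIs of both genes, 18.4% of Pecam1 alone, 20.2% of Cd44 alone and 6.87% (5.84 to 8.03) of neither. Both transcripts were found in 91.3% of EHT, 71.3% of myeloid, 68.5% of arterial, 67.8% of progenitor, 52.4% of megakaryocyte, 43.5% of plexus and 34.4% of macrophage cells as deposited. At 6000 UMIs the order was another: 27.4% of arterial, 23.1% of EHT, 8.70% of plexus, 4.09% of myeloid, 3.97% of progenitor, 3.57% of megakaryocyte and 1.91% of macrophage cells had both. As deposited, the missing transcript differed by class. In arterial and plexus cells it was Cd44 (30.6% and 54.3% had Pecam1 alone), and in macrophages, myeloid cells and progenitors it was Pecam1 (42.3%, 24.0% and 23.7% had Cd44 alone). In megakaryocytes either was missing, with 23.6% Pecam1 alone and 13.8% Cd44 alone.

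The 147 cells without both transcripts comprised 85 macrophages, 23 megakaryocytes, 5 progenitors, 2 EHT cells, 1 arterial cell, 1 myeloid cell and 30 cells of no class, with a median depth of 45363 UMIs. The share with both transcripts was 65.9% in control and 56.4% in cKO cells of replicate 1, and 50.7% and 52.5% in replicate 2. It was 55.4% in all control and 53.7% in all cKO cells. Macrophages made up 11.5% of the cells of replicate 1 and 34.4% of replicate 2, and the share within macrophages was 50.0% and 32.0%. Within replicate 1, control and cKO cells were 39.8% and 25% arterial and 8.08% and 14.8% macrophage. Within replicate 2 they were 13.2% and 15.4% arterial and 36.1% and 32.7% macrophage. Shares over all cells thus mix class make-up with detection, and the part of each in the genotype gaps was not tested. At 6000 UMIs the overall share with both was 10.2%, and with at least 2 UMIs of each gene as deposited it was 30.9%.

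**Figure D3:**
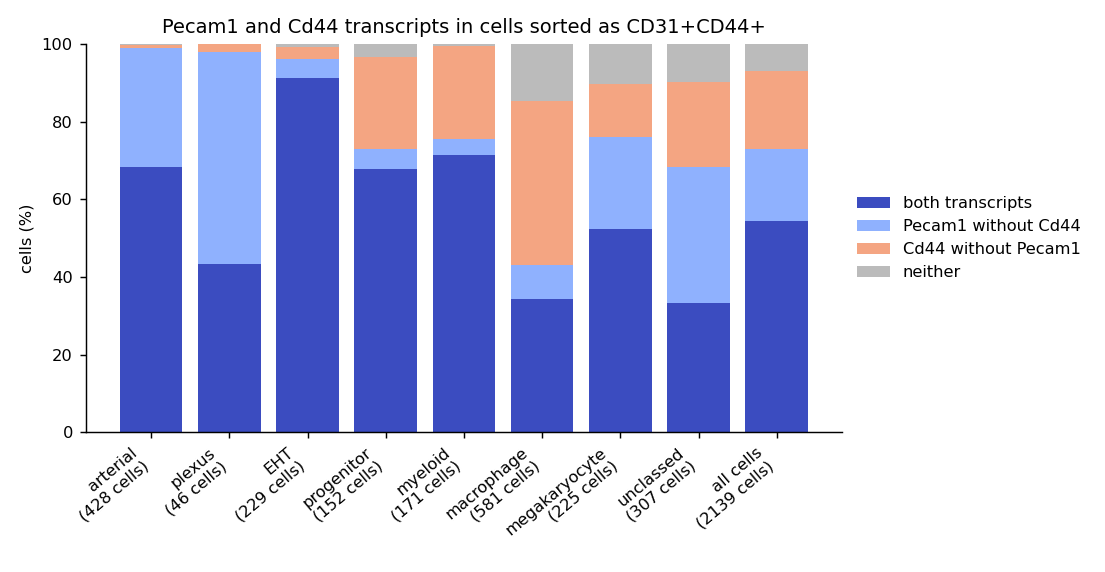
Share of cells (%) with UMIs of both Pecam1 and Cd44, of 1 of them, or of neither, by class, with the number of cells under each bar; shares are as deposited and stack to 100%. EHT cells have both in 91.3%, arterial cells in 68.5% and macrophages in 34.4%, where cells thinned to 6000 UMIs, not drawn, have 23.1%, 27.4% and 1.91%, and Pecam1 without Cd44 is the main remainder in arterial and plexus cells.

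Over all 4 genes, 407 cells (19.0%) had a UMI of each and 31 had none. The arterial pattern was Pecam1, Cd44 and Cd34 without Ptprc in 67.3% of cells and Pecam1 with Cd34 alone in 29.4%. Among EHT cells 52.0% had that same trio and 39.3% had all 4, the latter at a median depth of 66683 UMIs and the former at 45999. All 4 were detected in 38.8% of progenitor and 56.1% of myeloid cells. Macrophages were the most divided: 27.9% had Cd44 with Ptprc, 17.2% all 4, 16.4% lacked only Cd34 and 12.7% lacked only Pecam1. Megakaryocytes most often had Pecam1 with Cd44 (35.1%) or Pecam1 alone (17.3%), and 7.11% had none.

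The first comparison set EHT against arterial cells, the step at which endothelium turns toward blood. Pecam1 fell by 2.12 on the log2 scale (SE 0.14, adjusted p = 2.08e-07, edgeR's quasi-likelihood test with Benjamini-Hochberg adjustment over all genes, as for every p below), Cd34 fell by 0.82 (SE 0.12, adjusted p = 8.28e-05) and Ptprc rose by 5.21 (SE 0.50, adjusted p = 2.72e-06). In each of the 4 groups of 1 genotype and replicate Pecam1 and Cd34 were lower and Ptprc higher in EHT cells, with no overlap of the sums. The arterial Ptprc sums held 6 UMIs in all and 0 in 2 of the 4, so the fitted size of its rise depends on the prior count. All 4 members passed the threshold, where 52.5% of the 10255 genes tested did, so that passing it sets them little apart. Cd44 was 0.39 higher (SE 0.14, adjusted p = 0.0368) in 3 of 4 groups, with overlapping sums. This call was lost in most of the other settings tried, and with cells that met only 1 rule, which left 23 EHT cells, Cd44 was 0.39 lower (log2 fold change -0.39, adjusted p = 0.332).

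Of 11 tested partners of Pecam1 and junction genes, 10 fell and 1 rose, with a median log2 fold change of -1.80 against 0.05 over all genes. The largest were Kdr, the VEGF receptor (-2.72), Cd38, an ectoenzyme that binds CD31 (-2.37), and Ptpn6, the phosphatase SHP-1 of blood cells (3.81). Of 9 ligands, enzymes and linkers of Cd44, 2 rose and 4 fell: Srgn, the proteoglycan serglycin, rose by 2.40, and the hyaluronidase gene Hyal2 and Msn, a linker to actin, fell by 1.51 and 1.03. Of 8 genes around Ptprc, 4 rose and 3 fell, with Ptprcap, the CD45-associated protein, up 4.63 and Spn, the sialoprotein CD43, up 3.80. Lgals1, a galectin that binds CD45, fell by 0.71. In the family of Cd34 and the selectins, 5 of 7 fell, among them Emcn (-2.51) and Prom1 (-2.41), while Selp, P-selectin, rose by 4.63. Of 10 other surface markers 5 rose and 3 fell, with Itgam, or CD11b, at 5.57, Spn at 3.80 and Kit, the stem cell factor receptor, at 2.80.

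EHT cells varied among themselves. Cells with under 2 Myb UMIs (57 cells, median depth 35460) had 240 ± 43.7 CPM of Pecam1 (n = 4 sums) and 6.65 ± 4.00 CPM of Ptprc, and those with 2 or more (172 cells, median depth 61538.5) had 93.5 ± 9.93 and 22.8 ± 4.78 CPM. Neither gene's sums overlapped between these groups. Cd44 (87.5 ± 14.5 and 78.3 ± 15.8 CPM) and Cd34 (472 ± 78.7 and 441 ± 18.2 CPM) overlapped. A split by Gja5 at the arterial threshold gave Pecam1 sums that again did not overlap: 292 ± 89.2 CPM of Pecam1 in the 46 cells at or above it and 86.5 ± 12.2 CPM in the 183 under it. In this split Cd34 did not overlap either (564 ± 76.7 and 421 ± 19.7 CPM), and Cd44 did (100 ± 10.4 and 76.1 ± 15.5 CPM). Ptprc had 7.57 ± 8.85 CPM at or above it and 22.5 ± 6.41 CPM under it, overlapping. The smaller group held 10 to 19 cells a sum in the Myb split and 8 to 16 in the Gja5 split. Both splits were chosen after the data were seen and no test was made of them. The share of all genes without overlap in these splits was not counted, so the lack of overlap does not set the members apart from other genes. The plot of EHT cells by Myb sets the first split between its neighbours.

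**Figure D4:**
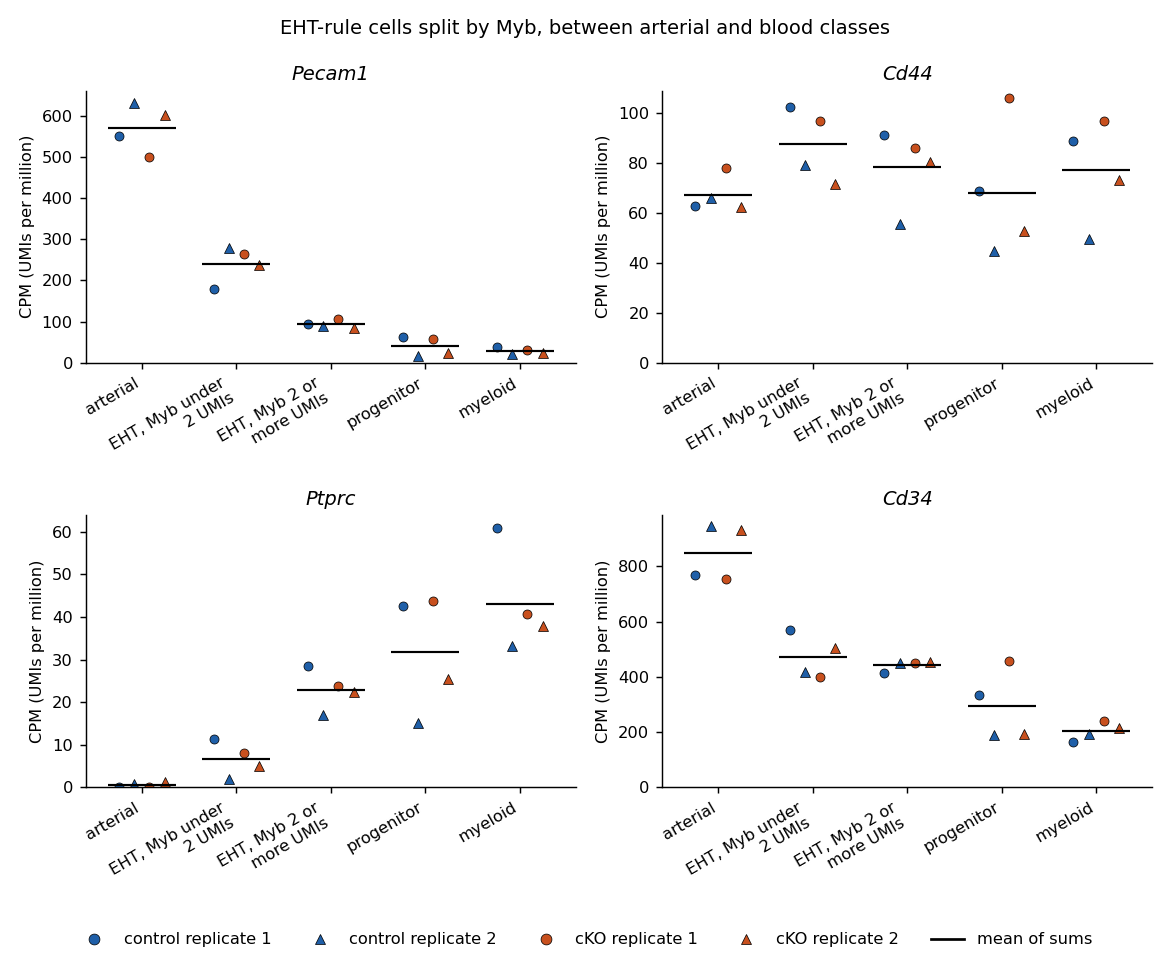
Level in CPM (linear axes from 0) of the 4 genes in arterial cells, EHT cells with under 2 and with 2 or more Myb UMIs, progenitor and myeloid cells; points are the sums of 1 genotype and replicate and lines their means. Mean Pecam1 is 572, 240 and 93.5 CPM and mean Ptprc 0.509, 6.65 and 22.8 CPM in the first 3 groups, where mean Cd44 lies between 67.2 and 87.5 CPM.

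From EHT to progenitor cells, Pecam1 was the only member to pass the threshold, and 13.3% of 9912 genes did. It fell by 1.60 (SE 0.34, adjusted p = 0.0113) and was lower in 4 of 4 groups, but without control replicate 2 the adjusted p was 0.0532 (log2 fold change -1.22). Ptprc was 0.68 higher (SE 0.32, adjusted p = 0.181), again in 4 of 4 groups. With these groups of 1 genotype and replicate as blocks its log2 fold change of 0.68 passed the threshold (adjusted p = 0.0138). It also passed at 2.21 with the Myb rule first (adjusted p = 0.00258) and at 1.06 with looser thresholds (adjusted p = 0.0260). C1qb was at 7.04 CPM in EHT and 71.6 CPM in progenitor cells, and its part in the Ptprc difference was not tested. The embryonic globin Hbb-bh1 was at 1.37 CPM in EHT cells and 93.9 CPM in progenitor cells, where 23.0% of cells had it. The part of such erythroid transcripts in the differences of the 4 members was not tested. Cd34 (-0.54, SE 0.22, adjusted p = 0.136) and Cd44 (-0.20, SE 0.22, adjusted p = 0.599) did not pass. Without cKO replicate 1, whose progenitors had 456 CPM of Cd34, that gene passed at -0.80 (adjusted p = 0.0281).

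Among the partners, 6 of 10 Pecam1 and junction genes fell and 0 rose, with Cdh5 at -2.45, Esam at -2.28 and Cd38, the CD31 ligand, also among them. Around Ptprc 3 of 9 rose, among them Lgals1 (2.04) and Ptprcap (1.88), and 2 fell, with the kinase gene Src at -2.48. In the Cd34 family Prom1 (-3.11), Podxl2 (-2.08) and Emcn (-1.77) fell and 1 gene, Cd164, rose by 0.52. Of the other surface markers Procr, the endothelial protein C receptor, fell by 3.42 and Tek by 1.92, and Cd48, a marker of committed progenitors, rose by 2.88. Hmmr, a hyaluronan receptor that is also a spindle protein, rose by 0.75, and Hyal2 fell by 1.07.

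Between myeloid and progenitor cells 0 of the 4 members passed, where 6.33% of 9072 genes did, and for these 4 genes 0 unadjusted p-values were under 0.05. The log2 fold changes were -0.36 for Pecam1 (SE 0.37, adjusted p = 0.665), 0.27 for Cd44 (SE 0.26, adjusted p = 0.622), 0.56 for Ptprc (SE 0.30, adjusted p = 0.325) and -0.44 for Cd34 (SE 0.24, adjusted p = 0.336). With the groups of 1 genotype and replicate as blocks Ptprc passed at 0.64 (adjusted p = 0.0261). With the Myb rule first, Pecam1 (-1.07, adjusted p = 0.0134), Ptprc (0.89, adjusted p = 0.0204) and Cd34 (-0.64, adjusted p = 0.0161) passed, and Cd34 passed at -0.87 with stricter thresholds (adjusted p = 0.0248). DESeq2 called 0 of the 4. Hbb-bh1 was at 93.9 CPM in progenitor and 2.13 CPM in myeloid cells, and its part in these values was not tested. Among the partner genes Srgn rose by 2.56, the linker gene Ezr by 1.27, Cd48 by 1.68 and Itgam by 1.25. The junction gene Esam fell by 1.90 and Emcn by 2.08.

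Plexus against arterial cells set a pair of endothelial classes side by side, and 14.8% of 8761 genes passed. The arterial sums also held the 64 cells that met both rules. Cd44 fell by 2.05 (SE 0.26, adjusted p = 9.39e-05) and was lower in 4 of 4 groups. In sums thinned to 6000 UMIs per cell the value was -1.53 (adjusted p = 0.104). Pecam1 fell by 0.71 (SE 0.18, adjusted p = 0.0166), also in 4 of 4, but 2 plexus sums held 6 cells each, and with sums of at least 10 cells the value was -0.45 (adjusted p = 0.162) and with stricter thresholds -0.26 (adjusted p = 0.466). Without control replicate 1 or 2 the adjusted p was 0.0873 and 0.110, at -0.69 and -0.54. Cd34 was at -0.25 (SE 0.14, adjusted p = 0.257), and Ptprc was too low to be tested. In the Cd44 list Has2, a hyaluronan synthase, fell by 7.01, Ezr by 1.97 and Rdx, radixin, by 1.03, 4 of 7 fell and Hmmr rose by 0.91. Cdh5 fell by 1.01 and Ctnnb1 by 0.54, Procr fell by 2.78, Tek by 2.23 and Prom1 by 2.13, and the kinase genes Lck and Lyn rose by 1.26 and 0.87.

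Macrophages and megakaryocytes, blood cells that carry CD31 or CD44 protein of their own, were each set against the same arterial sums, so these comparisons share values with each other and with those of EHT and plexus cells. In macrophages Pecam1 fell by 5.03 (SE 0.22, adjusted p = 5.42e-10), Cd34 fell by 4.87 (SE 0.16, adjusted p = 6.25e-11) and Ptprc rose by 7.77 (SE 0.38, adjusted p = 1.78e-09), where 65.4% of 10345 genes passed. The sums did not overlap in any of these. The size of the Ptprc rise rests on the same arterial sums, with 6 UMIs in all, and so depends on the prior count. Cd44 was at -0.37 (SE 0.16, adjusted p = 0.0547) and passed with the groups of 1 genotype and replicate as blocks (-0.39, adjusted p = 0.00585). It also passed without control replicate 1 (-0.50, adjusted p = 0.0170), and with library size only, exclusive cells or stricter thresholds (-0.51, -0.47 and -0.46). In megakaryocytes, where 66.2% of 10508 genes passed, Pecam1 fell by 3.96 (SE 0.20, adjusted p = 1.79e-09), Cd44 by 1.45 (SE 0.19, adjusted p = 1.17e-05) and Cd34 by 4.30 (SE 0.79, adjusted p = 0.00248), each lower in 3 of 3 groups. With looser thresholds the Cd44 value was -0.39 (adjusted p = 0.398). Without cKO replicate 2 the Cd34 value was -3.86 (adjusted p = 0.0748). Ptprc was not tested there.

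Among the partners in macrophages, 10 of 11 Pecam1 and junction genes fell, with Kdr at -8.57 and Cdh5 at -8.49, and Itgam rose by 8.48. Cd74, the CD44 partner and invariant chain, rose by 5.90, Lyve1, a hyaluronan receptor of vessels and macrophages, by 4.83, and Has2 fell by 8.62. In megakaryocytes 9 of 11 junction genes fell and 2 rose, Ptpn6 by 3.09 and Ptpn11, the phosphatase SHP-2, by 2.37. Itga2b, the integrin CD41 of platelets, rose by 6.96 and Selp by 4.69, while Prom1 fell by 7.30. Megakaryocytes also carried erythroid transcripts, with 776 CPM of the embryonic globin Hbb-bh1 over all cells of the class. Progenitor cells had 93.9 CPM, and the remaining classes 1.37 to 13.7 CPM. The part of these transcripts in the values above was not tested. Of 158 calls among partner genes in the 6 comparisons, 0 changed sign with other scalings or DESeq2, while 6 were lost with library size only and 4 with DESeq2.

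**Figure D5:**
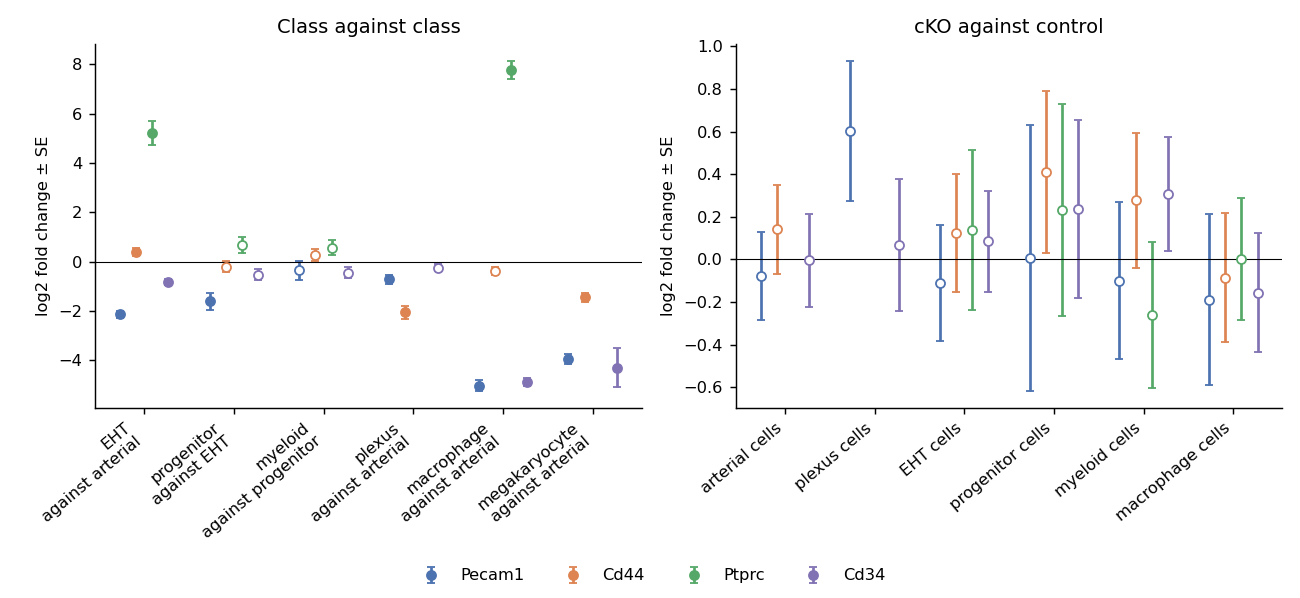
Log2 fold change with its standard error of the 4 genes in the 6 comparisons of classes (left) and in cKO against control sums of 6 classes (right, on a narrower axis). Filled points passed an adjusted p of 0.05 in edgeR, open points did not, and missing points were too low to be tested; 13 of 22 points are filled on the left and 0 of 21 on the right.

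The study asks what loss of Nupr1 in endothelium does at this stage, and the members were compared between cKO and control sums within each class, 2 against 2. Of the 21 member values tested in 6 classes 0 passed, the smallest unadjusted p being 0.0954, for Pecam1 in plexus cells. The background was as low: 0% of 10190 genes passed in arterial cells (137 with an unadjusted p under 0.05), 0% of 5813 in plexus (46), 0.0098% of 10200 in EHT, 0% of 9478 in progenitor (36), 0.0211% of 9495 in myeloid and 0% of 10609 in macrophage cells (66). DESeq2 called 0, 0, 0 and 1 gene in the 4 classes where edgeR called 0. The genes called by edgeR, named here after their values were seen, were Nupr1 in EHT cells (-3.64, SE 0.43, adjusted p = 0.00173) and Ear2 (-5.55, adjusted p = 0.0161) and Hebp1 (2.24, adjusted p = 0.0387) in myeloid cells. In macrophages Nupr1 was not called, although it had 33.1 and 45.8 CPM in control and 0.326 and 2.62 CPM in cKO. This test of 2 sums against 2, fitted without the replicate as a block, can thus miss a large difference, and 0 calls do not show equal levels. With that block edgeR called 19 genes in arterial, 0 in plexus, 1 in EHT, 13 in progenitor, 1 in myeloid and 25 in macrophage cells. Of the 21 member values, 0 changed their call.

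In arterial cells Pecam1 had 501 and 604 CPM in cKO against 552 and 631 CPM in control, a log2 fold change of -0.08 (SE 0.21), and Cd44 and Cd34 were at 0.14 (SE 0.21) and -0.003 (SE 0.22). In EHT cells the values were -0.11 (SE 0.27) for Pecam1, 0.13 (SE 0.28) for Cd44, 0.14 (SE 0.38) for Ptprc and 0.09 (SE 0.24) for Cd34. Cd34 in EHT cells was higher in cKO in both replicates, 442 against 432 and 460 against 439 CPM, a gap smaller than the SE. In progenitors the standard errors ran from 0.38 for Cd44 (0.41) to 0.62 for Pecam1 (0.01), and differences of that size were not detectable. Myeloid cells gave -0.10 (SE 0.37) for Pecam1, 0.28 (SE 0.32) for Cd44, -0.26 (SE 0.34) for Ptprc and 0.31 (SE 0.27) for Cd34, and macrophages -0.19 (SE 0.40), -0.09 (SE 0.30), 0.001 (SE 0.29) and -0.16 (SE 0.28).

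Plexus cells gave the largest difference among the tested values, 0.60 for Pecam1 (SE 0.33), with 358 and 428 CPM in cKO and 301 and 217 CPM in control, whose sums held 6 cells each. Cd44 in plexus cells, too low to be tested, had 12.9 and 24.4 CPM in cKO against 8.52 and 11.9 CPM in control, from 3 to 17 UMIs a sum. Megakaryocytes could be set side by side in replicate 2 alone: Pecam1 had 29.9 CPM in cKO and 28.8 in control, Cd44 20.7 and 19.2, and Cd34 31.7 and 11.5. Tests of whether the genotype difference varied between classes covered 59 values in 15 pairs of classes, and 0 passed in edgeR, with 0 unadjusted p-values under 0.05. Of the partner lists, 0 genes passed in any class.

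In some classes the sums of both genotypes were higher in the same replicate. Replicate 1 had the higher Ptprc in macrophages (136 and 143 against 96.9 and 89.5 CPM) and the higher Cd34 in progenitors (336 and 456 against 191 and 194 CPM). Replicate 2 had the higher Cd34 in arterial cells (945 and 929 against 768 and 753 CPM). Pecam1 in progenitors was 61.3 and 57.4 CPM in replicate 1 against 16.6 and 23.7 CPM in replicate 2. Of the 219 arterial cells of replicate 1, 55 were outside the authors' stated limits on genes, UMIs and mitochondrial share, against 0 of 209 in replicate 2. These are 2 pools, and no test was made of the replicate difference.

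Likeness to each member was measured by Pearson's correlation of log2(CPM + 1) over the 27 class sums, among 5573 genes with a mean of at least 20 CPM, as a description of sums that share pools and depth. Nearest to Pecam1 were Mmp14 (0.977), Nid1 (0.977), Mmrn2 (0.976), Notch4 (0.976) and Prex2 (0.975), among which Mmrn2 and Notch4 are known from endothelium. Nearest to Cd34 were Rbpms (0.978), the ETS factor gene Erg (0.966), Adgrl4 (0.964), Mdk (0.958) and Traf4 (0.947). For Ptprc they were Cebpb (0.955), Tyrobp (0.943), an adaptor of myeloid receptors, Apbb1ip (0.933), Ccl9 (0.932) and Ly6e (0.921). Cd44 had only weaker matches, with Cdca7l (0.838), Fam172a (0.819), the keratin gene Krt18 (0.814), Aebp2 (0.813) and Ankrd13a (0.807). Between members, Pecam1 and Cd34 were at 0.808, Pecam1 and Ptprc at -0.691, Cd44 and Ptprc at 0.493, Cd34 and Ptprc at -0.432, Pecam1 and Cd44 at -0.137 and Cd44 and Cd34 at 0.113. By Spearman's correlation other genes led the Pecam1 list, of which 0 of the 5 remained.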

How the data were processed

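CD31+CD44+ cells were measured by 10x scRNA-seq in 2 pools. Per the submitters' processing notes, reads were processed with Cell Ranger 5.0.1 on mm10 (annotation not given in the sources used here), and the authors kept hashtag singlets from HTODemux and the values the authors deposited are unnormalized UMI counts, 1 row a gene and 1 column a cell, beside the hash.ID of each cell. The stated limits (over 1800 genes, over 6000 UMIs, under 5% mitochondrial) were not met by 101 deposited cells, which were kept. Replicate 1 held all 101, of which 55 were arterial. No further doublet caller was run, and cells that met several class rules were left out as an alternative.

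The 4 members, the class rules, thresholds and gene lists were chosen with earlier results of these data known. None of the 4 genes enters a rule. UMIs were summed per class, genotype and replicate where a sum had at least 5 cells, with 301038 to 14678729 UMIs a sum in the class comparisons. edgeR 4.0.16 in R 4.3.3 (filterByExpr, TMM, robust quasi-likelihood test, Benjamini-Hochberg adjustment over all genes, threshold 0.05) compared the sums, each fit holding only the groups compared; CPM uses the UMIs of the sum. The procedure was also run on sums simulated with the spread that edgeR fitted to these data, which cannot test that fit, and the outcome is not reported here. Since nothing but the pools separates cultures or animals, p-values measure the spread between sums, and a test of 2 sums against 2 by exact permutation cannot go below p = 0.333. Replicate numbers pair the sums because the paper's methods put both genotypes in 1 pool: deviations from group means correlated across genes at 0.18 to 0.67 in every check made, and genes are not independent. Shares have exact Clopper-Pearson intervals, and thinning drew 6000 UMIs per cell. DESeq2 1.42.0, RLE or no scaling factors, no low-count filter, other thresholds and rule orders, the stated limits, thinned sums and leaving out each sum were alternatives, and sums of at least 10 cells were added after the data were seen. The replicate block was another, with 1 block per genotype and replicate in class comparisons and 1 per replicate in cKO against control. Genes named are the members, the 3 called genes at most per list and comparison with the largest change, and the 5 most like each member. Ear2, Hebp1, Nupr1 and the few genes that moved against most of their list (Cd164, Hmmr, Ptpn6, Ptpn11, Selp) were named after their values were seen. In the lists, genes without a test were too low. Python 3.11.15 and matplotlib 3.10.9 were used for the shares and plots. Some genes that the naming rule selects are not reported here.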

Additional observations from a re-analysis of the deposited data

How the results depend on the processing

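The calls of Pecam1, Ptprc and Cd34 in EHT against arterial cells, of Pecam1, Ptprc and Cd34 in macrophages and of Pecam1 in megakaryocytes kept their direction and passed in every setting that gave a value. Of 352 member values of class comparisons under alternatives, 317 kept direction and side of the threshold, 20 lost a call, 14 gained one and 1 reversed; 12 of the 22 values changed at least once. All 224 genotype values stayed uncalled, 43 with the other sign, as did 2 of the class values. The causes were not tested.

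Cd44 in EHT against arterial cells was not called with library size only (0.27), no low-count filter (0.34), DESeq2 (0.37), all classes in one fit (0.25), the Myb rule first (0.44), stricter thresholds (0.30) or thinned sums (0.50), ranged from 0.28 to 0.43 when each sum was left out, and reversed to -0.39 with exclusive cells. In progenitor against EHT cells Pecam1 ranged from -1.98 to -1.22 and Cd34 from -0.80 to -0.34 without each sum, and Ptprc passed with the replicate block (0.68), the Myb rule first (2.21) and looser thresholds (1.06). In myeloid against progenitor cells Ptprc passed with the replicate block (0.64), Pecam1 (-1.07), Ptprc (0.89) and Cd34 (-0.64) with the Myb rule first, and Cd34 with stricter thresholds (-0.87). Pecam1 in plexus cells did not pass with all classes in one fit (-0.76), stricter thresholds (-0.26), thinned sums (-0.56) or sums of at least 10 cells (-0.45), and ranged from -0.86 to -0.54 without each sum; Cd44 there did not pass in thinned sums (-1.53). Cd44 in macrophages passed with the replicate block (-0.39), library size only (-0.51), exclusive cells (-0.47) and stricter thresholds (-0.46), and ranged from -0.50 to -0.27. In megakaryocytes Cd44 did not pass with looser thresholds (-0.39), and Cd34 ranged from -5.12 to -3.45. The replicate block changed no other member's call.

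Counts of called genes moved more. EHT against arterial gave 1525 with exclusive cells, 1371 with the Myb rule first and 2360 thinned. Progenitor against EHT gave 2578 with the replicate block, 2306 with all classes, 731 with exclusive cells, 2105 with the Myb rule first, 757 with looser thresholds, 261 thinned and 367 to 1384 without each sum. Myeloid against progenitor gave 1483 with the block, 894 with DESeq2, 1210, 1161 and 2175 with all classes, exclusive cells and the Myb rule first, 1192 and 205 with stricter and looser thresholds, 100 thinned and 225 to 484 without each sum. Plexus against arterial gave 1984 with the block, 813 with stricter thresholds, 279 thinned and 786 to 1028 without each sum, and thinned macrophage and megakaryocyte sums gave 3853 and 3662. In cKO against control, the block gave 19 genes in arterial, 13 in progenitor, 1 in myeloid and 25 in macrophage cells; no filter gave 13, 5, 32, 25, 12 and 19 in arterial, plexus, EHT, progenitor, myeloid and macrophage cells; DESeq2 gave 2 in EHT and 1 in macrophage cells, exclusive cells 0 in EHT and stricter thresholds 0 in myeloid cells. Without each sum the counts were 1 to 11, 3 to 17, 6 to 86, 5 to 27, 19 to 34 and 9 to 41 in the same order of classes, where a lone sum was assumed to vary like the pair.

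Cells with both Pecam1 and Cd44 were 10.2% thinned and 30.9% with at least 2 UMIs. By Spearman's correlation 0, 3, 2 and 1 of the 5 genes most like Pecam1, Cd44, Ptprc and Cd34 remained, and with at least 50 CPM 3, 0 and 2 for Pecam1, Cd44 and Cd34. Of 28 shares per class, 26 moved beyond their interval when thinned, 22 with at least 2 UMIs, 7 with exclusive cells and 2 within the stated limits. The genotype comparison in megakaryocytes was not run, having 0 cKO cells in replicate 1, and alternatives that left a sum under 5 cells gave no value. Depth limits Ptprc in endothelium and Cd44 in plexus cells, which rest on 0 to 17 UMIs a sum.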
